A study of Rattus norvegicus with 20 samples.

Results

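Cadherins and protocadherins are calcium-dependent adhesion proteins that sit in the membranes of neighbouring cells and bind mostly to copies of themselves. Their genes were taken from the deposited count table of the rat nucleus accumbens by symbol, as every Cdh gene with a number and every Pcdh gene, with 10 or more counts in at least 4 of the 20 libraries. The pattern matched 68 symbols, and 65 of the 17296 symbols in the table met the count rule. The symbols left out were Cdh16 and Cdh17, with 4 and 7 counts in all, and Cdh26, which reached 10 counts in 1 library. All 65 members passed the filter on low counts and were among the 12846 genes tested, and 63 of them had 10 or more counts in every library. The choice of members used no comparison of groups.

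Classical cadherins join pre- and postsynaptic membranes and are tied to the actin cytoskeleton through the catenins. The type II members are expressed in region-specific combinations that mark brain nuclei and their connections. The clustered protocadherins lie in the alpha, beta and gamma gene clusters next to each other and give each neuron a surface identity that it uses to recognise its own branches. The delta protocadherins are non-clustered relatives that take part in axon growth and in the sorting of neuronal populations.

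The 65 members comprised 4 type I cadherins, 10 type II cadherins, 2 other cadherins, 3 delta1 and 4 delta2 protocadherins, 3 other non-clustered protocadherins, and 15 alpha, 11 beta and 13 gamma protocadherins. Cdh4, Cdh12, Cdh18, Pcdh1, Pcdh10 and Pcdhgc5 were not analysed here.

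RNA came from the nucleus accumbens, the ventral striatal region in which dopamine acts on reward seeking, of male wild-type Sprague-Dawley rats from Envigo. All rats had self-administered cocaine, entered the study at 7 to 9 weeks of age and were kept 2 to a cage. They drank both antibiotics and fatty acids (Abx_SCFA, n = 5), short-chain fatty acids, which are products of bacterial fermentation in the gut (SCFA, n = 6), antibiotics alone (Abx, n = 4) or water (H2O, n = 5). No group without cocaine was analysed here. The study's title places it in work on whether these microbial metabolites regulate drug seeking and transcription. Library totals ran from 18375538 to 25731636 counts in Abx_SCFA, from 17946132 to 25601695 in SCFA, from 17525358 to 25366231 in Abx and from 18223766 to 22235777 in H2O. Levels are given in CPM (counts scaled to library size), which are not corrected for transcript length, so that levels are compared between libraries and not between genes.

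The libraries differed widely in a marker of cortical excitatory neurons. Slc17a7, the vesicular glutamate transporter of cortical excitatory neurons, had 132, 194, 155, 339 and 216 CPM in the Abx_SCFA libraries and from 74.0 to 1059 CPM, with a median of 268 CPM, in the SCFA libraries. It had 506, 43.7, 183 and 458 CPM in the Abx libraries and 3.29, 32.8, 3.09, 14.6 and 252 CPM in the H2O libraries. All but 1 of the H2O libraries lay at or below 32.8 CPM, and SCFA replicates 2 and 5 were the highest of all. Drd1, the dopamine receptor of the direct-pathway medium spiny neurons that make up much of the accumbens, had 371, 362, 385, 437 and 342 CPM in the Abx_SCFA libraries and from 171 to 411 CPM, with a median of 306.4 CPM, in the SCFA libraries. It had 333, 364, 462 and 337 CPM in the Abx libraries and 411, 511, 379, 411 and 321 CPM in the H2O libraries. SCFA replicates 2 and 5 were the lowest of all libraries for Drd1. Across the 20 libraries the log2 levels of both markers correlated with r = -0.53 (Spearman's rho = -0.57, permutation p = 0.0168 and 0.0103). The summed level of 13 markers of cortical excitatory neurons ran from 345 to 644 CPM in Abx_SCFA, from 246 to 1709 CPM in SCFA, from 223 to 847 CPM in Abx and from 168 to 491 CPM in H2O. That of 16 markers of medium spiny neurons ran from 8171 to 9837 CPM in Abx_SCFA, from 4585 to 9830 CPM in SCFA, from 7406 to 10674 CPM in Abx and from 7767 to 10585 CPM in H2O. None of these markers was at 0 in every library. In bulk tissue, fewer cells of a type and less RNA per cell cannot be told apart. The rats of the fatty acid groups, Abx_SCFA and SCFA, carry numbers of the 4-hundred series and the others numbers of the 2-hundred and 3-hundred series, so that the series of a rat's number cannot be told apart from its treatment with fatty acids.

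The alpha and gamma protocadherin symbols did not give separate measurements. In these clusters each gene has its own first exon, which is spliced to constant exons shared by the whole cluster, and the deposited counts followed that structure. Log2 CPM of the 15 alpha symbols correlated pairwise with r from 0.990 to 0.9997 across the 20 libraries, and that of the 13 gamma symbols with r from 0.923 to 0.9997. In each library the lowest alpha symbol, Pcdha1 in 20 of 20 libraries, had at least 93.3% of the counts of the other alpha symbols apart from Pcdhac2. The lowest gamma symbol, Pcdhga1 in 15 of 20 libraries, had at least 97.0% of the counts of the other gamma symbols apart from Pcdhgc3. Both blocks are therefore treated as 1 measurement each, and the remaining 37 members are called separately counted. Beta protocadherin genes have a single exon each and no constant exons, but they are close paralogs, and how reads that match several of them were counted is not given in the sources used here.

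The alpha block was steady in the mean. Pcdha1 had 109.6, 122, 123, 149 and 111 CPM in the Abx_SCFA libraries and from 95.5 to 148 CPM, with a median of 123 CPM, in the SCFA libraries. It had 114, 124, 137 and 122 CPM in the Abx libraries and 119.9, 147, 122, 123 and 103 CPM in the H2O libraries. All groups overlapped, and the means were 123 ± 16.0 CPM in Abx_SCFA, 124 ± 20.1 CPM in SCFA, 124 ± 9.60 CPM in Abx and 123 ± 15.5 CPM in H2O (mean ± SD over 5, 6, 4 and 5 libraries, as for all averages below). Pcdhac2, a C-type isoform that is expressed widely rather than by random choice, stood above the lowest alpha symbol by 28.1 ± 3.72 CPM in Abx_SCFA, 27.0 ± 4.13 CPM in SCFA, 28.8 ± 3.48 CPM in Abx and 28.9 ± 3.52 CPM in H2O. Of the gamma block, Pcdhga1 had 679, 661, 698, 745 and 699 CPM in the Abx_SCFA libraries and from 609 to 721 CPM, with a median of 671 CPM, in the SCFA libraries. It had 683, 658, 704 and 689 CPM in the Abx libraries and 667, 748, 685, 638 and 668 CPM in the H2O libraries. The lowest gamma level of all was that of SCFA replicate 2, and the groups overlapped. Pcdhgc3, likewise a C-type isoform, exceeded the lowest gamma symbol by 134 ± 5.80 CPM in Abx_SCFA, 145 ± 9.46 CPM in SCFA, 124 ± 19.3 CPM in Abx and 136 ± 9.73 CPM in H2O. How much of these excesses came from exons of the C-type genes alone was not tested. In exact two-sided permutation tests of their log2 values over 5 comparisons each, the smallest of the 10 p-values was 0.0563, for Pcdhgc3 in Abx_SCFA against SCFA, with a log2 difference of -0.11. The 9 others were 0.182 or higher.

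**Figure D1:**
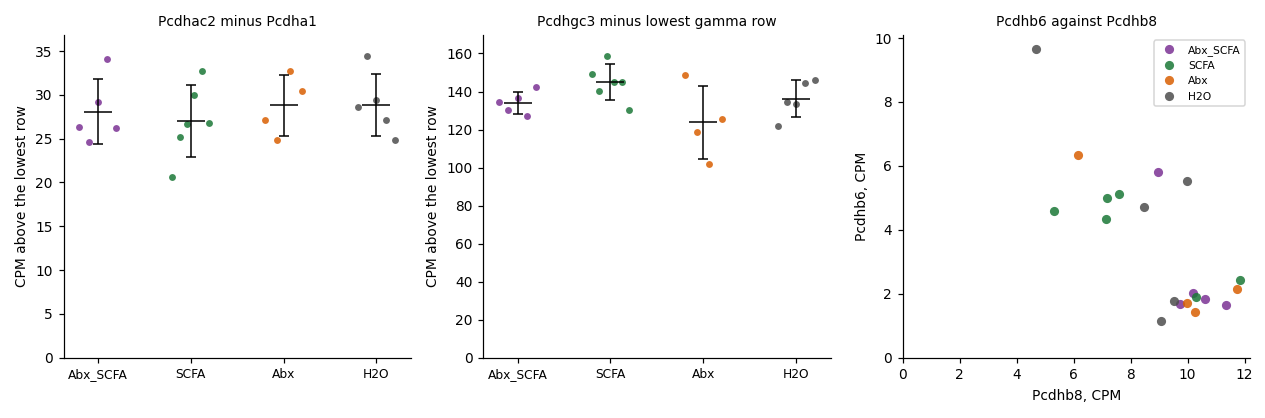
Excess of Pcdhac2 over Pcdha1 (left) and of Pcdhgc3 over the lowest gamma symbol (middle) in CPM, by group, with a point per library and the mean and SD as bars; the right panel plots Pcdhb6 against Pcdhb8 in CPM, with a point per library. The groups overlap in both excesses, and 11 libraries lie at or below 2.42 CPM of Pcdhb6 while the other 9 lie at or above 4.35 CPM.

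For the treatment comparisons, 1 edgeR quasi-likelihood model of the 4 groups over all 20 libraries gave the contrasts of Abx_SCFA, SCFA and Abx with H2O, of Abx_SCFA with Abx and with SCFA, an interaction, the difference between the antibiotic effect with fatty acids (Abx_SCFA against SCFA) and without them (Abx against H2O), and a test for any difference among the 4 groups. Calls were made at p-values below 0.05 after Benjamini-Hochberg adjustment over all genes tested. Not 1 of the 65 members was called in any of these tests, nor was any other gene, so that the background was 0.0% throughout. DESeq2 and limma-voom also called 0 members in each of them. At an unadjusted p below 0.05, edgeR gave 2 members in Abx_SCFA against H2O, with 5.56% of all genes tested, 4 in SCFA against H2O, with 13.8%, and 3 in Abx against H2O, with 8.79%. It gave 0 members in Abx_SCFA against Abx, with 3.19%, 2 in Abx_SCFA against SCFA, with 6.78%, 1 in the interaction, with 7.85%, and 3 in the test over the 4 groups, with 8.29%. As shares of the 65 members these are 3.08%, 6.15%, 4.62%, 0%, 3.08%, 1.54% and 4.62%, each below the share of all genes. All of these members are separately counted, and as shares of those 37 they are 5.41%, 10.8%, 8.11%, 0%, 5.41%, 2.7% and 8.11%, also below the share of all genes. The CPM of the groups did not overlap for 0 members in Abx_SCFA against H2O, with 1.42% of all genes tested, for 1 in SCFA against H2O, with 0.537%, for 0 in Abx against H2O, with 2.46%, for 1 in Abx_SCFA against Abx, with 1.2%, and for 0 in Abx_SCFA against SCFA, with 0.56%. The contrasts with H2O share the H2O libraries and are not independent of each other.

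Without Cdh1 and Pcdhb6, the 2 most variable members, the log2 fold changes of the separately counted members ran from -0.60 to 0.38 in Abx_SCFA against H2O, from -0.46 to 0.40 in SCFA against H2O and from -0.65 to 0.30 in Abx against H2O. Their medians over all 37 were -0.066, -0.030 and -0.00079, beside -0.0071, -0.0030 and -0.0083 over all genes tested. The median SD of log2 CPM between libraries was 0.209 for the separately counted members and 0.167 for all genes tested. Cdh11 varied least of them, from 82.1 to 104 CPM with an SD of 0.090 on the log2 scale.

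**Figure D2:**
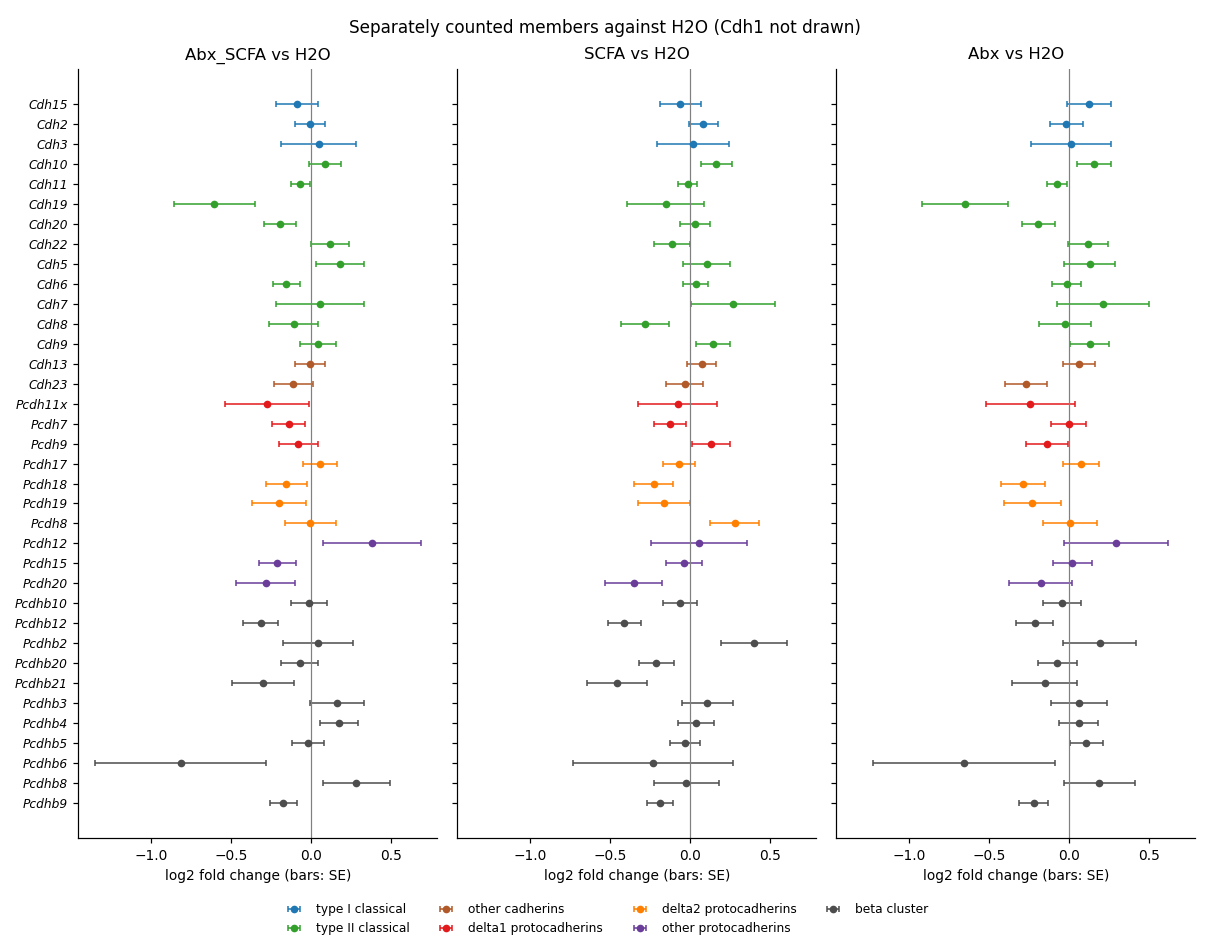
Log2 fold change and SE of 36 separately counted members in Abx_SCFA, SCFA and Abx against H2O, coloured by family; Cdh1, which had few counts, is not drawn. Cdh19 lies at -0.60 and -0.65 in both antibiotic groups, and Pcdhb12 lies at -0.31, -0.41 and -0.21.

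Type I cadherins link cells through adherens junctions. Cdh2, the N-cadherin of synapses, averaged 146 ± 9.12 CPM in Abx_SCFA, 156 ± 28.5 CPM in SCFA, 145 ± 9.67 CPM in Abx and 147 ± 4.55 CPM in H2O. Its log2 fold change was -0.091 ± 0.091 (SE) in Abx_SCFA against SCFA and 0.086 ± 0.091 in SCFA against H2O. SCFA replicate 2, at 199.9 CPM, and replicate 5, at 175 CPM, were the highest libraries. Cdh15 averaged 6.76 ± 0.681 CPM in Abx_SCFA, 6.90 ± 0.903 CPM in SCFA, 7.88 ± 1.22 CPM in Abx and 7.21 ± 1.33 CPM in H2O, with a log2 fold change of -0.21 ± 0.14 (SE) in Abx_SCFA against Abx. Cdh3, the P-cadherin, averaged 1.59 ± 0.360 CPM in Abx_SCFA, 1.55 ± 0.460 CPM in SCFA, 1.55 ± 0.341 CPM in Abx and 1.54 ± 0.346 CPM in H2O. Of these 4 members, Cdh1, the E-cadherin of epithelia, was the 1 with an unadjusted p below 0.05 in any contrast between groups. Cdh1 averaged below 1 CPM and was singled out after its values were seen. It had 13, 14, 11, 12 and 28 counts in Abx_SCFA, from 1 to 82 counts in SCFA, 18, 20, 17 and 33 counts in Abx, and 2, 8, 0, 2 and 16 counts in H2O. The SCFA libraries held both the highest count and values as low as those of H2O. Its log2 fold change was 2.45 ± 0.78 in SCFA against H2O, with an adjusted p of 0.247 by edgeR's quasi-likelihood test, and -2.92 ± 1.10 in the interaction, with an adjusted p of 0.622.

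Type II cadherins are the family with the most region-specific expression in the brain. Cdh8 marks striatal and thalamic populations in rodents and is found at corticostriatal synapses. It had 51.9, 67.0, 63.3, 79.99 and 66.9 CPM in the Abx_SCFA libraries and from 48.4 to 80.9 CPM, with a median of 54.3 CPM, in the SCFA libraries. It had 68.6, 73.6, 83.3 and 54.3 CPM in the Abx libraries and 62.7, 89.0, 85.4, 56.4 and 61.5 CPM in the H2O libraries. SCFA replicate 4 stood above the other SCFA libraries and the groups overlapped. The log2 fold change of SCFA against H2O was -0.28 ± 0.15 with an adjusted p of 0.415. Cdh10 had 47.3, 57.5, 53.7, 58.0 and 52.0 CPM in the Abx_SCFA libraries and from 48.9 to 68.2 CPM, with a median of 55.6 CPM, in the SCFA libraries. It had 68.4, 52.9, 50.1 and 53.8 CPM in the Abx libraries and 48.2, 55.2, 42.6, 48.1 and 58.5 CPM in the H2O libraries, with the highest values in Abx replicate 1 and SCFA replicate 5. Its log2 fold change of SCFA against H2O was 0.17 ± 0.097 (adjusted p = 0.462), and with the Slc17a7 level as a covariate it was -0.13. Cdh9, which takes part in hippocampal mossy fibre synapses in mice, averaged 29.4 ± 1.52 CPM in Abx_SCFA, 31.5 ± 4.95 CPM in SCFA, 31.3 ± 5.07 CPM in Abx and 28.5 ± 3.93 CPM in H2O. Cdh11 averaged 88.3 ± 3.65 CPM in Abx_SCFA, 91.6 ± 5.14 CPM in SCFA, 87.9 ± 6.01 CPM in Abx and 92.4 ± 7.94 CPM in H2O and Cdh22 averaged 76.7 ± 7.47 CPM in Abx_SCFA, 65.4 ± 6.51 CPM in SCFA, 76.7 ± 14.9 CPM in Abx and 70.6 ± 12.3 CPM in H2O. Cdh5, the VE-cadherin of endothelial junctions, averaged 14.1 ± 1.04 CPM in Abx_SCFA, 13.3 ± 2.62 CPM in SCFA, 13.6 ± 2.92 CPM in Abx and 12.4 ± 2.42 CPM in H2O.

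Cdh19 had 7.17, 4.75, 4.98, 5.58 and 3.52 CPM in the Abx_SCFA libraries and from 3.21 to 9.81 CPM, with a median of 7.70 CPM, in the SCFA libraries. It had 3.95, 5.82, 3.25 and 7.01 CPM in the Abx libraries and 6.43, 7.80, 8.98, 9.42 and 6.81 CPM in the H2O libraries. Its 4 Abx libraries and its 5 Abx_SCFA libraries overlapped with those of H2O. The log2 fold changes were -0.60 ± 0.25 in Abx_SCFA against H2O and -0.65 ± 0.27 in Abx against H2O, with unadjusted p-values of 0.0271 and 0.0264 and adjusted p-values of 0.815 and 0.563. The summed level of 10 oligodendrocyte markers was also lower in part of these libraries. It ran from 11286 to 20099 CPM in Abx_SCFA, from 6152 to 23673 CPM in SCFA, from 6535 to 13795 CPM in Abx and from 14562 to 22076 CPM in H2O, and its part in the difference of Cdh19 was not tested. Cdh20 averaged 19.1 ± 1.73 CPM in Abx_SCFA, 22.3 ± 2.20 CPM in SCFA, 19.1 ± 2.01 CPM in Abx and 21.8 ± 3.11 CPM in H2O, and Cdh6 averaged 20.9 ± 2.50 CPM in Abx_SCFA, 23.8 ± 2.47 CPM in SCFA, 23.0 ± 1.60 CPM in Abx and 23.2 ± 1.06 CPM in H2O. These were the 2 members with an unadjusted p below 0.05 in Abx_SCFA against SCFA, at -0.23 ± 0.095 and -0.19 ± 0.080 on the log2 scale and with an adjusted p of 0.732 each. Cdh7 averaged 8.34 ± 1.49 CPM in Abx_SCFA, 9.63 ± 4.47 CPM in SCFA, 9.30 ± 1.66 CPM in Abx and 8.001 ± 2.54 CPM in H2O, with 17.5 CPM in SCFA replicate 5 as its highest value.

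Of the other cadherins, Cdh13, the T-cadherin that is anchored to the membrane by a lipid and lacks a cytoplasmic tail, averaged 109 ± 9.47 CPM in Abx_SCFA, 116 ± 15.2 CPM in SCFA, 115 ± 4.20 CPM in Abx and 109.8 ± 15.1 CPM in H2O. Cdh23, a tip-link protein of hair cells, averaged 8.44 ± 1.28 CPM in Abx_SCFA, 8.88 ± 0.594 CPM in SCFA, 7.54 ± 0.607 CPM in Abx and 9.08 ± 1.81 CPM in H2O, and its log2 fold change in Abx against H2O was -0.27 ± 0.13 (adjusted p = 0.574). Neither was called in any contrast.

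Among the delta1 protocadherins, Pcdh9 had 90.5, 89.5, 86.3, 121 and 77.2 CPM in the Abx_SCFA libraries and from 92.1 to 131 CPM, with a median of 103 CPM, in the SCFA libraries. It had 106, 79.9, 83.7 and 86.3 CPM in the Abx libraries and 84.2, 104, 83.3, 105 and 113 CPM in the H2O libraries. The highest values were those of SCFA replicates 2 and 5 and of Abx_SCFA replicate 4, and the groups overlapped. Pcdh7 averaged 46.4 ± 6.93 CPM in Abx_SCFA, 46.7 ± 5.33 CPM in SCFA, 51.0 ± 6.19 CPM in Abx and 51.1 ± 5.01 CPM in H2O. Pcdh11x, an X-linked member, had a single high library, SCFA replicate 5 with 25.7 CPM, beside at most 12.9 CPM in the other SCFA libraries and at most 16.4 CPM in any other group.

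The delta2 protocadherins included Pcdh8, the activity-regulated protocadherin also known as arcadlin in rats, which removes N-cadherin from synapses. Pcdh8 had 60.8, 58.0, 64.4, 70.5 and 71.0 CPM in the Abx_SCFA libraries and from 58.6 to 130.1 CPM, with a median of 72.2 CPM, in the SCFA libraries. It had 64.7, 71.5, 65.9 and 59.8 CPM in the Abx libraries and 64.1, 62.8, 60.7, 65.3 and 72.9 CPM in the H2O libraries. SCFA replicate 5 reached 130.1 CPM, and no library outside SCFA was above 72.9 CPM. The log2 fold change of SCFA against H2O was 0.28 ± 0.15 with an adjusted p of 0.429, and with the Drd1 level as a covariate it was -0.020. The slope of Pcdh8 on Drd1, given below, rested on SCFA replicate 5 and ran from -0.72 to -0.12 with each library left out. The part of Drd1 in this difference was not tested. Pcdh17, which marks corticobasal ganglia circuits in mice, had 125.8, 155, 143, 146 and 123 CPM in the Abx_SCFA libraries and from 99.4 to 152 CPM, with a median of 127 CPM, in the SCFA libraries. It had 124, 125, 166 and 145 CPM in the Abx libraries and 138, 156, 113, 122 and 135 CPM in the H2O libraries. The lowest value was that of SCFA replicate 5. Pcdh19, an X-linked gene in which variants cause an epilepsy, averaged 19.7 ± 2.56 CPM in Abx_SCFA, 20.2 ± 2.84 CPM in SCFA, 19.3 ± 5.79 CPM in Abx and 22.6 ± 4.10 CPM in H2O. Pcdh18 averaged 13.3 ± 0.935 CPM in Abx_SCFA, 12.6 ± 1.42 CPM in SCFA, 12.1 ± 2.87 CPM in Abx and 14.8 ± 2.08 CPM in H2O, with a log2 fold change of -0.29 ± 0.14 in Abx against H2O (adjusted p = 0.566).

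Of the remaining non-clustered protocadherins, Pcdh20 had 58.9, 58.0, 57.1, 68.7 and 56.9 CPM in the Abx_SCFA libraries and from 45.8 to 81.2 CPM, with a median of 54.8 CPM, in the SCFA libraries. It had 48.8, 83.9, 74.9 and 51.2 CPM in the Abx libraries and 65.1, 83.4, 101, 65.8 and 49.8 CPM in the H2O libraries. Pcdh15, another hair cell tip-link protein, had 14.9, 14.1, 14.1, 11.7 and 11.2 CPM in the Abx_SCFA libraries and from 11.95 to 17.3 CPM, with a median of 14.8 CPM, in the SCFA libraries. It had 15.2, 15.2, 14.9 and 16.6 CPM in the Abx libraries and 14.8, 11.3, 15.8, 16.5 and 17.8 CPM in the H2O libraries. All 5 Abx_SCFA libraries lay below the 4 Abx libraries, though the nearest 2 both round to 14.9 CPM, and it was the 1 member of 65 without overlap in that comparison. Its log2 fold change there was -0.23 ± 0.12, with an unadjusted p of 0.0726 and an adjusted p of 0.999. Pcdh12, an endothelial protocadherin, averaged 1.16 ± 0.390 CPM in Abx_SCFA, 0.934 ± 0.237 CPM in SCFA, 1.08 ± 0.492 CPM in Abx and 0.894 ± 0.277 CPM in H2O, with a log2 fold change of 0.38 ± 0.31 in Abx_SCFA against H2O.

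**Figure D3:**
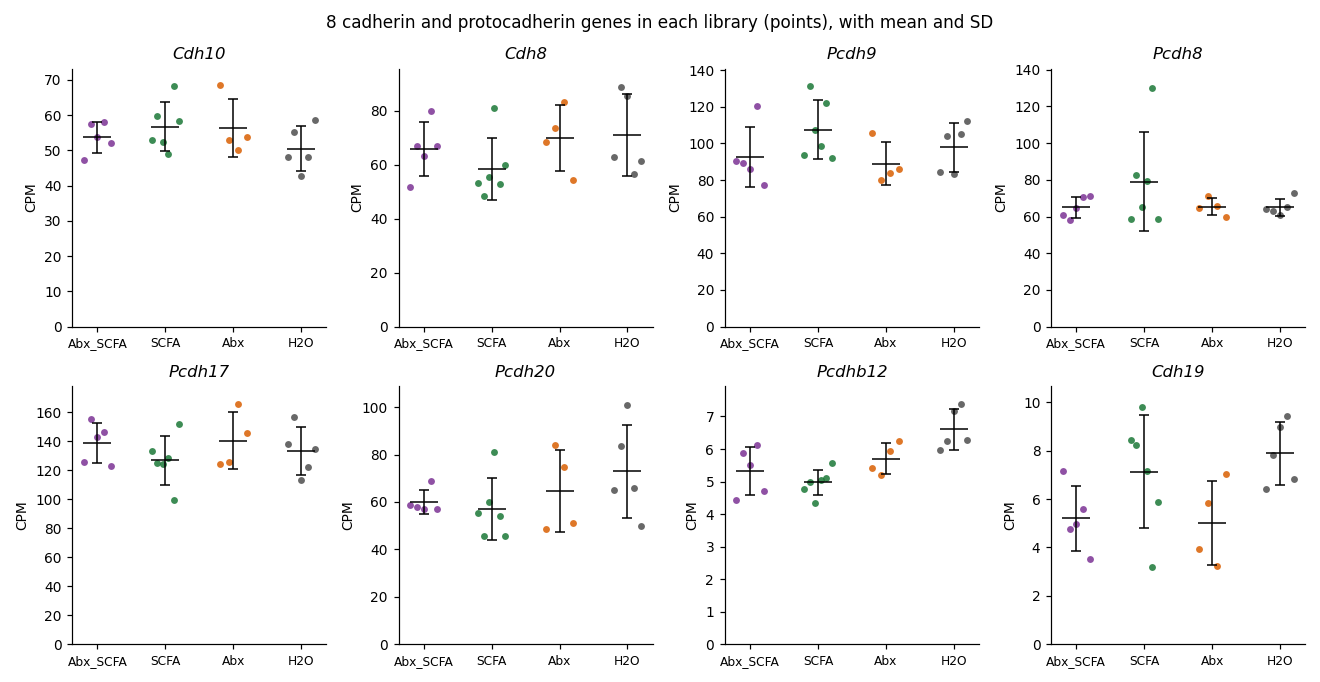
CPM of 8 members by group, with a point per library and the mean and SD as black bars. The groups overlap in each panel except for Pcdhb12 between SCFA, at 4.35 to 5.56 CPM, and H2O, at 5.96 to 7.39 CPM.

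The beta cluster held the member with the smallest unadjusted p in each of the 3 contrasts with H2O, Pcdhb12 in Abx_SCFA and in SCFA and Pcdhb9 in Abx, and 3 of the 4 members with an unadjusted p below 0.05 in SCFA against H2O. Clustered protocadherin genes each have their own promoter, and in mice and humans most of these carry a conserved element around the letters CGCT, at which the looping factor CTCF is known to act. The stretch from -110 to -11 relative to the gene start is shown for these 3 beta genes, with the smallest p-values among the cluster, and for Pcdhb6 and Pcdhb8, whose levels ran opposite to each other, from RefSeq promoters of the GRCr8 assembly, plus strand, 5′ to 3′, with CGCT in capitals.
Pcdhb12, chr18:29413646-29413745: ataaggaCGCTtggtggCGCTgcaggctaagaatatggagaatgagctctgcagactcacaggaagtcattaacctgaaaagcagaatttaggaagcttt
Pcdhb9, chr18:29379200-29379299: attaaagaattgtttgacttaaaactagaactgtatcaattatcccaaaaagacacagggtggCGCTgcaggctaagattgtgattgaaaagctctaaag
Pcdhb21, chr18:29492109-29492208: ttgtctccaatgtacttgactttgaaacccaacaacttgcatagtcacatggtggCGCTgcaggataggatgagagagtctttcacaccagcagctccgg
Pcdhb6, chr18:29320281-29320380: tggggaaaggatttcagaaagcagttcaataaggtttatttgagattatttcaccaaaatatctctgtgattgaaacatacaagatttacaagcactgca
Pcdhb8, chr18:29339366-29339465: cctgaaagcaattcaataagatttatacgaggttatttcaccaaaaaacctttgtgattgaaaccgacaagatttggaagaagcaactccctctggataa
CGCT occurs at -103 and -93 in Pcdhb12, at -47 in Pcdhb9 and at -55 in Pcdhb21, counted from its first base to the gene start. In this window CGCT on the gene's strand was present in 9 of the 11 beta promoters and in 10 of the 12 matched gamma promoters, beside 22.0% of all 33469 promoters. On either strand, as CGCT or AGCG, it was present in the same 9 and 10 promoters, beside 35.9% of all. The 1 matched alpha promoter, that of Pcdha4, had it on neither strand. Whether a match to these letters is the conserved element was not tested. In Pcdhb6 and Pcdhb8 the letters are not in this window. RefSeq promoters were matched by symbol for 42 of the 65 members.

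Pcdhb12 had 4.43, 5.87, 5.49, 6.12 and 4.70 CPM in the Abx_SCFA libraries and from 4.35 to 5.56 CPM, with a median of 5.02 CPM, in the SCFA libraries. It had 5.41, 5.21, 5.93 and 6.26 CPM in the Abx libraries and 5.96, 6.24, 7.17, 7.39 and 6.29 CPM in the H2O libraries. All 6 SCFA libraries lay below all 5 H2O libraries, and it was the 1 member of 65 for which these groups did not overlap. The log2 fold change of SCFA against H2O was -0.41 ± 0.10, with an unadjusted p of 0.000746 and an adjusted p of 0.247 by edgeR's quasi-likelihood test. In Abx_SCFA against H2O it was -0.31 ± 0.11 and in Abx against H2O it was -0.21 ± 0.11, with adjusted p-values of 0.815 and 0.596. Pcdhb21 averaged 4.19 ± 1.01 CPM in Abx_SCFA, 3.74 ± 0.708 CPM in SCFA, 4.65 ± 1.08 CPM in Abx and 5.14 ± 1.21 CPM in H2O, with a log2 fold change of -0.46 ± 0.19 in SCFA against H2O (adjusted p = 0.29). Pcdhb9 had 15.1, 13.8, 16.4, 16.2 and 14.8 CPM in the Abx_SCFA libraries and from 13.5 to 16.2 CPM, with a median of 15.1 CPM, in the SCFA libraries. It had 13.8, 15.8, 14.1 and 15.5 CPM in the Abx libraries and 15.7, 20.4, 17.1, 18.4 and 14.5 CPM in the H2O libraries. Only H2O replicates 2, 3 and 4 were above 17 CPM. Its log2 fold change was -0.17 ± 0.085 in Abx_SCFA against H2O, -0.19 ± 0.081 in SCFA against H2O and -0.22 ± 0.090 in Abx against H2O, with adjusted p-values from 0.308 to 0.815.

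The other 8 beta members were of mixed sign. Pcdhb20, at -0.070 ± 0.12 in Abx_SCFA, -0.21 ± 0.11 in SCFA and -0.071 ± 0.12 in Abx against H2O, had negative log2 fold changes in all 3 contrasts, as did Pcdhb10 and Pcdhb6. Pcdhb2 averaged 1.09 ± 0.153 CPM in Abx_SCFA, 1.40 ± 0.277 CPM in SCFA, 1.22 ± 0.319 CPM in Abx and 1.06 ± 0.241 CPM in H2O, with a log2 fold change of 0.40 ± 0.21 in SCFA against H2O. Pcdhb4, at 0.18 ± 0.12, and Pcdhb8, at 0.28 ± 0.21, had positive changes in Abx_SCFA against H2O, and Pcdhb5, at 0.11 ± 0.10, had one in Abx against H2O. In all, 4 of the 11 beta genes were higher in Abx_SCFA than in H2O, 3 of 11 in SCFA and 5 of 11 in Abx, by the sign of the log2 fold change alone. The medians were -0.017, -0.061 and -0.040, beside -0.0071, -0.0030 and -0.0083 over all genes tested.

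The genes whose products work with cadherins gave no call in the contrasts either. Of 8 catenins tested, 12 other members of the cadherin superfamily, 21 adhesion partners and 10 factors that act at protocadherin promoters, 0 were called by edgeR in any contrast. In SCFA against H2O, 1 catenin, 4 superfamily members, 5 adhesion partners and 0 promoter factors had an unadjusted p below 0.05, beside 13.8% of all genes tested. The smallest was that of Nectin3, an immunoglobulin-type adhesion protein of puncta adherentia, which averaged 9.99 ± 1.25 CPM in Abx_SCFA, 13.5 ± 1.94 CPM in SCFA, 10.1 ± 1.40 CPM in Abx and 9.91 ± 1.03 CPM in H2O. It had a log2 fold change of 0.44 ± 0.11 in SCFA against H2O and of -0.43 ± 0.11 in Abx_SCFA against SCFA, with adjusted p-values of 0.247 and 0.732. Clstn2, a calsyntenin of the postsynaptic membrane, averaged 20.1 ± 3.75 CPM in Abx_SCFA, 25.5 ± 11.7 CPM in SCFA, 23.3 ± 5.41 CPM in Abx and 13.8 ± 2.86 CPM in H2O, with a log2 fold change of 0.88 ± 0.25 in SCFA against H2O (adjusted p = 0.247). Beta-catenin, Ctnnb1, averaged 374 ± 13.5 CPM in Abx_SCFA, 366 ± 26.6 CPM in SCFA, 365 ± 19.7 CPM in Abx and 362 ± 25.7 CPM in H2O.

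The relations to both markers were tested within the groups, by adding log2 CPM of Slc17a7 or of Drd1 to the model of the 4 groups. The slope is the log2 change of a gene per doubling of the marker. On Slc17a7, 4 of the 65 members were called, or 6.15%, and 10.8% of the 37 separately counted ones, beside 9.44% of all genes tested. Cdh10, Pcdh9 and Cdh1 rose with Slc17a7, beside 6.86% of all genes, and Pcdh20 fell, beside 2.58%, and all 4 are separately counted. On Drd1, 3 of the 65 members were called, or 4.62%, and 8.11% of the 37, beside 8.69% of all genes tested. Cdh8 and Pcdh17 rose with Drd1, beside 3.8% of all genes, and Pcdh8 fell, beside 4.89%. Over the 37 separately counted members both shares lie near that of all genes tested.

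The 2 marker lists moved with these slopes. On Slc17a7, 9 of 12 tested cortical markers were called as rising, beside 6.86% of all genes. Of 16 medium spiny markers, 2 were called as falling, beside 2.58%. The median slopes of the lists, called or not, were 0.473 and -0.083 per doubling, beside -0.0012 over all genes. On Drd1, 15 of 15 medium spiny markers were called as rising, beside 3.8% of all genes. Of 13 cortical markers, 7 were called as falling, beside 4.89%. The median slopes on Drd1 were 0.898 for the medium spiny and -2.33 for the cortical markers. Their part in the slopes of the cadherins and protocadherins was not tested.

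Cdh10 had the smallest p of the members on Slc17a7. SCFA replicate 5, with 1059 CPM of Slc17a7, had 68.2 CPM of Cdh10, and the H2O libraries with 3.09 and 3.29 CPM of Slc17a7 had 42.6 and 48.2 CPM. The slope was 0.075 ± 0.015 (SE) per doubling, with an adjusted p of 0.00392 by edgeR's quasi-likelihood test, and its sign was present within 4 of 4 groups. Across libraries r was 0.77 and rho 0.80 (permutation p = 7e-05 for r, 0.00268 and 0.00108 adjusted over all genes). The r was 0.79 in the 9 libraries of the 2-hundred and 3-hundred series (adjusted p = 0.203), 0.87 in the 11 of the 4-hundred series (adjusted p = 0.00906) and 0.69 without the 2 libraries lowest in Slc17a7 (adjusted p = 0.0221). Leaving out each library in turn left the slope between 0.067 and 0.086. With both SCFA replicates 2 and 5 left out it was 0.067 with an adjusted p of 0.0377, and with both markers in 1 model 0.067 with an adjusted p of 0.0504.

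Pcdh9 had a slope of 0.083 ± 0.021 per doubling of Slc17a7 (adjusted p = 0.0149), with its sign in 4 of 4 groups. Across all libraries r was 0.43 and rho 0.46 (adjusted p = 0.199 and 0.155), so that the relation passed the test with group terms and not over the pooled libraries. Without SCFA replicates 2 and 5 the slope was 0.070 with an adjusted p of 0.105. Cdh1 had a slope of 0.55 ± 0.14 (adjusted p = 0.018) and r of 0.79 (rho 0.75, adjusted p = 0.00243 and 0.00475). Without SCFA replicates 2 and 5, which had 82 and 50 counts of Cdh1, the slope was 0.45 with an adjusted p of 0.122.

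Pcdh20 ran the other way, with a slope of -0.12 ± 0.032 per doubling of Slc17a7 (adjusted p = 0.0207), and with its sign in 3 of 4 groups. Its lowest values, 45.8 and 45.9 CPM, were those of SCFA replicates 6 and 2 and its highest, 83.9 and 101 CPM, those of Abx replicate 2 and H2O replicate 3. Across libraries r was -0.70 and rho -0.77 (adjusted p = 0.0118 and 0.003), and r with Drd1 was 0.59 (rho 0.74, adjusted p = 0.0453 and 0.00898). Within the number series r with Slc17a7 was -0.69 and -0.55, with adjusted p-values of 0.371 and 0.199. The slope was not called without H2O replicate 3, H2O replicate 5 or Abx replicate 2, at -0.11, -0.12 and -0.11 with adjusted p-values of 0.0557, 0.0561 and 0.0545, nor without both SCFA replicates 2 and 5, at -0.13 with an adjusted p of 0.0533. Pcdhb2 also correlated with Slc17a7 (r = 0.61, rho = 0.56, adjusted p = 0.0408 and 0.0682). Correlation with Slc17a7 was called for 4 members, beside 12.1% of all genes.

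**Figure D4:**
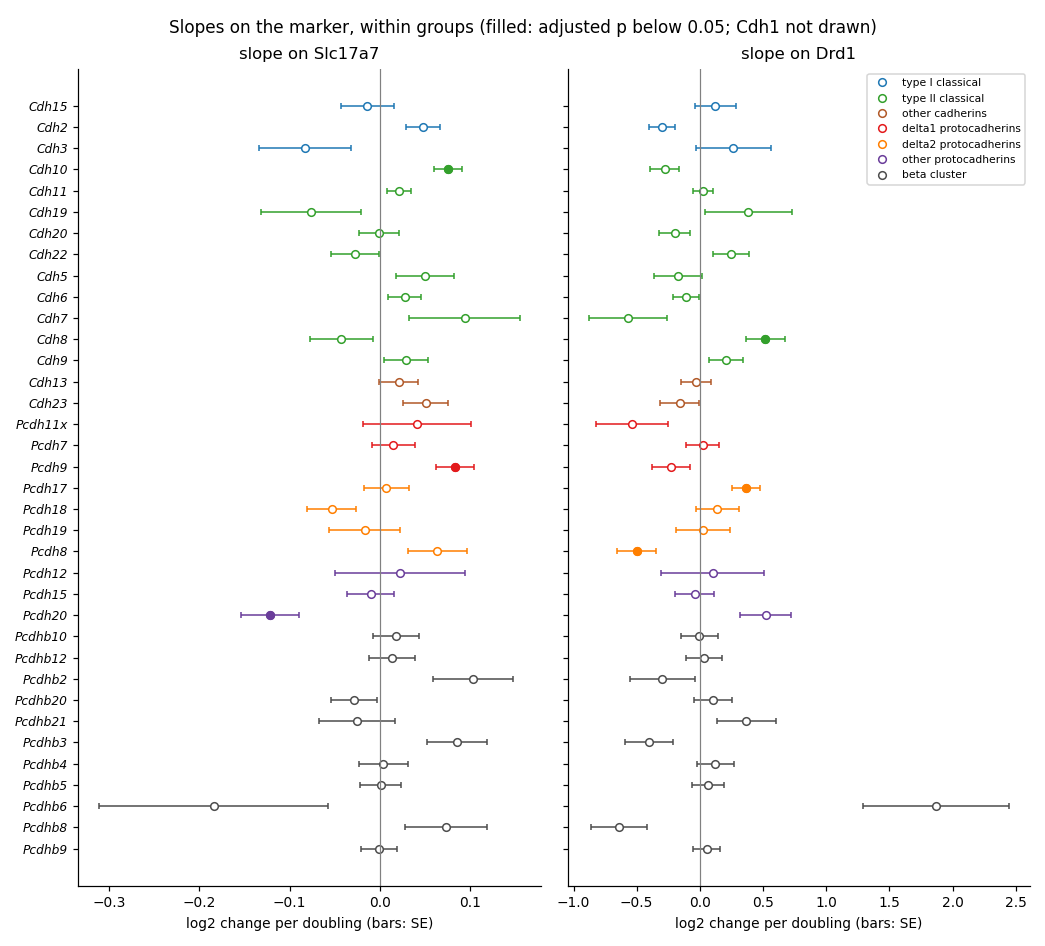
Slope per doubling of Slc17a7 (left) and of Drd1 (right), with SE, for 36 separately counted members coloured by family; filled points have an adjusted p below 0.05 and Cdh1, called on Slc17a7 at 0.55, is not drawn. The filled points are Cdh10, Pcdh9 and Pcdh20 on Slc17a7 and Cdh8, Pcdh17 and Pcdh8 on Drd1.

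On Drd1, Cdh8 had a slope of 0.52 ± 0.15 per doubling (adjusted p = 0.0391), with its sign in 4 of 4 groups. Its lowest value, 48.4 CPM, was that of SCFA replicate 2, with 208 CPM of Drd1, and its highest, 89.0 CPM, that of H2O replicate 2, with 511 CPM. Across libraries r and rho were 0.69 and 0.69 (adjusted p = 0.00685 and 0.0221), and r was 0.68 without SCFA replicates 2 and 5 (adjusted p = 0.0333). Within the number series r was 0.58 and 0.72, with adjusted p-values of 0.468 and 0.12. The call of the slope was lost without Abx_SCFA replicate 3 or 4, SCFA replicate 2 or 4, Abx replicate 3, or H2O replicate 2 or 5, with slopes from 0.40 to 0.52 and adjusted p-values from 0.0507 to 0.208. Without SCFA replicates 2 and 5 it was 0.88 with an adjusted p of 0.0492.

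Pcdh17 had a slope of 0.36 ± 0.11 per doubling of Drd1 (adjusted p = 0.0492), with its sign in 4 of 4 groups. The call held in the fits without Abx_SCFA replicate 2, SCFA replicate 4, Abx replicate 2, or H2O replicate 5 and was lost when any 1 of the other libraries was left out, with slopes between 0.28 and 0.47 over the 20 fits. Its r of 0.62 (rho 0.42, adjusted p = 0.0304 and 0.256) rested on SCFA replicates 2 and 5 and was 0.39 without them (adjusted p = 0.308). With both markers in 1 model it was the 1 member called on Drd1, at 0.49 with an adjusted p of 0.0252.

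The slope of Pcdh8 on Drd1, -0.50 ± 0.15 with an adjusted p of 0.0468 and its sign in 2 of 4 groups, rested on SCFA replicate 5, which had 130.1 CPM of Pcdh8 and 171 CPM of Drd1. Without that library the slope was -0.12 (adjusted p = 0.711), and without SCFA replicates 2 and 5 it was 0.15 (adjusted p = 0.651). The call was lost in the fits without Abx_SCFA replicate 1, 3 or 5, SCFA replicate 1, 2, 3, 5 or 6, Abx replicate 1, or H2O replicate 1, 4 or 5, with slopes from -0.55 to -0.12 and adjusted p-values from 0.0511 to 0.711. Across libraries r was -0.66 and rho -0.11 (adjusted p = 0.052 and 0.853), and r was 0.21 without these 2 libraries (adjusted p = 0.621).

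**Figure D5:**
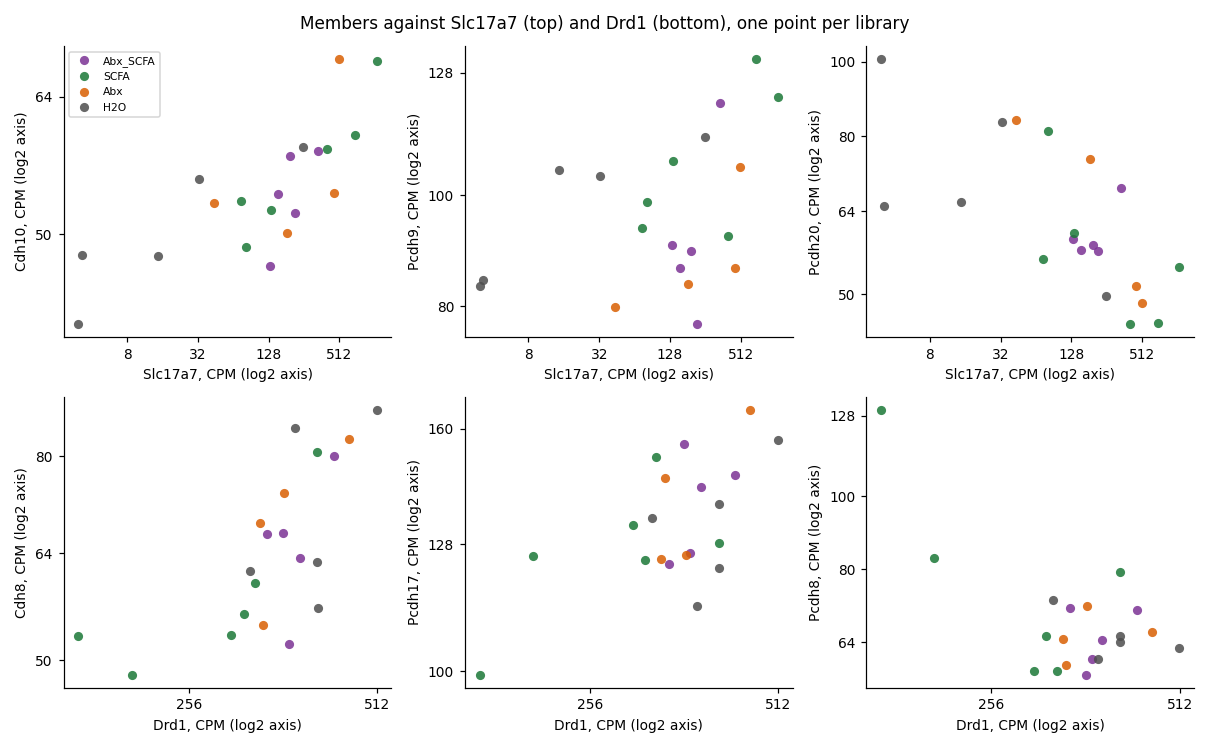
CPM of Cdh10, Pcdh9 and Pcdh20 against Slc17a7 (top) and of Cdh8, Pcdh17 and Pcdh8 against Drd1 (bottom), with a point per library coloured by group and log2 axes. Cdh10 runs upward with Slc17a7 and Pcdh20 downward, Cdh8 runs upward with Drd1, and the Pcdh8 panel has its high points, 130 and 82.8 CPM, at the 2 libraries lowest in Drd1.

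At an unadjusted p below 0.05, 22 members had a slope on Drd1, or 33.8%, beside 20.9% of all genes tested, but 12 of the 22 were gamma symbols and so 1 measurement, and the other 10 are 27% of the separately counted members. Pcdhga1 stood for them with a slope of 0.17 ± 0.063 and an adjusted p of 0.119. Its r with Drd1 was 0.65 (rho 0.45, adjusted p = 0.0205 and 0.213), and 0.44 without SCFA replicates 2 and 5 (adjusted p = 0.242). The slope without these libraries was 0.17 ± 0.097 (adjusted p = 0.321), so that its size was kept. Of the 15 members with a called r with Drd1, beside 15.3% of all genes, 12 were gamma symbols and the others were Cdh8, Pcdh17 and Pcdh20.

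For the alpha block, Pcdha1 had r of 0.067 with Drd1 over all libraries (adjusted p = 0.902) and a slope of 0.055 ± 0.14. SCFA replicate 5 had 148 CPM of Pcdha1, near the highest value of 149 CPM, with the lowest Drd1 of all. Without SCFA replicates 2 and 5, r was 0.70 (rho 0.66, adjusted p = 0.0241 and 0.0659) and the slope 0.65 ± 0.17 (adjusted p = 0.0332). In the 9 libraries of the 2-hundred and 3-hundred series r with Drd1 was 0.89 (adjusted p = 0.126), and in the 11 of the 4-hundred series it was -0.19 (adjusted p = 0.798). With Slc17a7, r was 0.16 over all libraries (adjusted p = 0.709), -0.20 in the 9 (adjusted p = 0.859) and 0.77 in the 11 (adjusted p = 0.0404). The test for a difference between alpha and gamma was not run.

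At an unadjusted p below 0.05, 7 members had a slope on Slc17a7, beside 23.7% of all genes tested, of which those not called were Cdh2, Pcdhb2 and Pcdhb3, at 0.048 ± 0.019, 0.10 ± 0.044 and 0.085 ± 0.033 per doubling. The separately counted members past that threshold on Drd1 and not called were Cdh1, Cdh2, Cdh10, Pcdh20, Pcdhb3, Pcdhb6 and Pcdhb8. Pcdhb6 had a slope on Drd1 of 1.87 ± 0.58 with an adjusted p of 0.0517, and Pcdhb8 one of -0.64 ± 0.22 with an adjusted p of 0.0821. Cdh7 and Pcdh11x, with slopes on Drd1 of -0.57 ± 0.31 and -0.54 ± 0.28, had slopes of 0.68 and 0.68 without SCFA replicates 2 and 5.

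Partner genes gave calls with the markers, beside 9.44% of all genes called on Slc17a7 and 8.69% on Drd1, and beside 23.7% and 20.9% at an unadjusted p below 0.05. On Slc17a7, 2 of 8 catenins were called, Ctnnd2, the neuronal delta-catenin, at 0.063 ± 0.014 and the alpha-catenin-like Ctnnal1 at -0.094 ± 0.019 per doubling, with adjusted p-values of 0.00598 and 0.00328. Of 12 other superfamily members, Clstn2 at 0.20 ± 0.035, Fat4 at 0.13 ± 0.026 and Dchs1 at 0.085 ± 0.025 rose, and Fat1 fell, at -0.072 ± 0.015. Fat4 and Dchs1 are a receptor and ligand pair of planar cell polarity. Of 21 adhesion partners, Magi1, a junctional scaffold, Nectin1 and the nectin-binding Afdn rose, at 0.11 ± 0.021, 0.19 ± 0.041 and 0.041 ± 0.012. Of 10 promoter factors 0 were called by edgeR, with 2 at an unadjusted p below 0.05. On Drd1, edgeR called 0 of 8 catenins, with 3 at an unadjusted p below 0.05, 3 of 12 superfamily members, 3 of 21 adhesion partners and 0 of 10 promoter factors, with 0 at an unadjusted p below 0.05. Ptprm, a receptor phosphatase that binds cadherin complexes, had the smallest p of these, with a slope of 0.48 ± 0.080 and an adjusted p of 0.000886, and Fat3 rose too, at 0.38 ± 0.11. Clstn2, Dchs1, Magi1 and Plekha7 fell with Drd1, at -0.94 ± 0.22, -0.51 ± 0.14, -0.52 ± 0.13 and -0.74 ± 0.22.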

How the data were processed

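The authors deposited 1 table of raw counts per gene symbol for 20 libraries of polyA RNA, made with SMARTer cDNA per the labels' protocols. FastQC 0.11.6, STAR 2.4.0, limma and the Rnor_6.0 genome are named in the submitters' processing notes. How reads were counted, on which annotation and with what strand setting, is not given in the sources used here. All columns matched a library by name, and 0 were left unused. Genes were filtered with filterByExpr, which left 12846 of 17296, scaled by TMM, and tested in edgeR 4.0.16 with a robust quasi-likelihood model of 4 groups (16 residual degrees of freedom, R 4.3.3). DESeq2 1.42.0 and limma 3.58.1 (voom) were alternatives. CPM and log2 CPM (prior count 2) were computed from the deposited counts. Slopes on a marker added its log2 CPM to the model, in which the marker itself was not tested. Correlations used log2 CPM and two-sided permutation p-values computed with numpy 2.4.6, adjusted by the Benjamini-Hochberg method over all genes. They took 100000 resamples, or all 362880 pairings for the 9 libraries of the 2-hundred and 3-hundred series. The exact permutation tests of the excesses of Pcdhac2 and Pcdhgc3 were run in scipy 1.17.1. The procedures were tested on simulated data.

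A count of 3 corresponds to 0.115 to 0.171 CPM. Every pair of the 190 pairs of libraries differed by more than sampling noise (chi-square per gene of 6.77 or more). Each library is 1 rat per the labels' titles, and p-values measure the spread between these libraries. Which of the rats shared a cage is not given in the sources used here, and cage was not part of the model.

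Named members were, among those averaging 1 CPM or more, the 5 most abundant, a list of representative roles, the 3 with the smallest p on each side of each contrast and the 5 steepest on each side of each slope. The members and all gene lists were chosen with earlier results of these data known. RefSeq holds 51 of the 65 member symbols as current ones and not the other 14, which were used as the table gives them. Alternatives covered scaling, filter, covariates, number series, the libraries compared and each library left out.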

Additional observations from a re-analysis of the deposited data

Results flagged for a closer look

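Within each group of 4 to 6 libraries, the highest and the lowest library were compared with the others by Dixon's criterion for 41 named genes, which made 164 sets of values. A single library stood apart in 11 of them, and chance gives about 1 in 20, or 8.2 here.

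SCFA replicate 5 was high for 3 members. It had 130 CPM of Pcdh8, beside 58.6 to 82.8 CPM in the other SCFA libraries, 25.7 CPM of Pcdh11x, beside 7.52 to 12.9 CPM, and 28.6 CPM of Cdh6, beside 22.0 to 23.9 CPM. SCFA replicate 4 had 80.9 CPM of Cdh8, beside 48.4 to 59.8 CPM in the others.

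Abx_SCFA replicate 4 was high for Pcdh20, at 68.7 CPM beside 56.9 to 58.9 CPM, and for Pcdhb6, at 5.82 CPM beside 1.66 to 2.03 CPM. Abx_SCFA replicate 5 was low for Pcdh18, at 11.7 CPM beside 13.3 to 13.9 CPM. Abx replicate 2 had 6.34 CPM of Pcdhb6, beside 1.42 to 2.14 CPM in the other Abx libraries.

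H2O replicate 5 was high for Cdh5, at 16.6 CPM beside 10.6 to 11.8 CPM, and for Cdh23, at 12.2 CPM beside 7.55 to 8.73 CPM. H2O replicate 2 had 4.68 CPM of Pcdhb8, beside 8.47 to 9.96 CPM in the other H2O libraries.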

How the results depend on the processing

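In the contrasts between groups, 0 members were called by edgeR under each alternative run. On Slc17a7, where 4 members were called, 1 was called without SCFA replicates 2 and 5, 0 with both markers in 1 model, 0 in the 2-hundred and 3-hundred series and 23 in the 4-hundred series, of which 8 are separately counted and the others alpha or gamma symbols. On Drd1, where 3 were called, the counts were 16 without SCFA replicates 2 and 5 (1 separately counted), 9 without group terms (7), 1 with both markers, 0 and 1 in the same series, and 17 by DESeq2 (5). With each library left out in turn, 0 to 5 members were called on Drd1, with 0 without SCFA replicate 2 or Abx_SCFA replicate 3, 1 without H2O replicate 1, 4 or 5, Abx replicate 1, SCFA replicate 1, 3 or 5, or Abx_SCFA replicate 1 or 5, and 5 without Abx replicate 2. The shares of all genes called on either marker under these alternatives are not given here. The 9.44% for Slc17a7 and 8.69% for Drd1 belong to the main fit, so that these counts are not read as results about the members. The sign turned for Cdh10 with Slc17a7 as a covariate (-0.11 in Abx against H2O, -0.13 in SCFA against H2O, 0.064 in the interaction), for Pcdh8 in SCFA against H2O with Drd1 as a covariate (-0.020), and for Pcdh18 in Abx_SCFA against Abx (-0.0084 to 0.25 with each library left out, negative without Abx replicate 1). Slopes on Drd1 turned without SCFA replicates 2 and 5 for Cdh19 (-0.33), Cdh7 (0.68), Pcdh11x (0.68) and Pcdh8 (0.15). In the 2-hundred and 3-hundred series they turned for Cdh19 (-0.42), Cdh7 (0.84), Pcdh11x (0.20), Pcdhb21 (-0.11) and Pcdhb3 (0.0078), and the slope of Cdh7 on Slc17a7 was -0.042. With each library left out, the slope on Drd1 ran from -0.22 to 0.58 for Cdh19 and from -0.85 to 0.42 for Pcdh11x, and both turned without SCFA replicate 5. Correlations no longer called were those of Cdh1 (0.89), Cdh10 (0.79) and Pcdh20 (-0.69) with Slc17a7 and of Cdh8 (0.58) and Pcdh17 (0.54) with Drd1 in the 2-hundred and 3-hundred series, and those of Pcdh20 (-0.55), Cdh8 (0.72) and Pcdh17 (0.70) in the 4-hundred series. Few genes of any kind were called in the smaller sets. With Slc17a7, r was called for 0.304% of all genes in the 2-hundred and 3-hundred series and 16.7% in the 4-hundred series. With Drd1, r was called for 0.0311% and 2.24%. Without SCFA replicates 2 and 5, r with Drd1 was 0.39 for Pcdh17 and 0.21 for Pcdh8. The causes were not tested. Of the values of single members under alternatives, 1565 kept their direction and side of the threshold, 65 lost a call, 11 gained one and 17 turned. No paired analysis was possible because each rat number occurs once and the replicate numbers follow the order of the samples only.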

Other observations

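Cdh19 tracked the markers of oligodendrocytes, and the relation was looked at after the values were seen. Across the 20 libraries its log2 CPM correlated with the summed level of 10 oligodendrocyte markers at r = 0.87 (rho = 0.86), with adjusted p-values of 0.000349 and 0.000526 in permutation tests. The r was 0.86 in the 9 libraries of the 2-hundred and 3-hundred series (adjusted p = 0.0552), 0.88 in the 11 of the 4-hundred series (adjusted p = 0.00449) and 0.78 without SCFA replicate 5 and Abx replicate 3 (adjusted p = 0.00548). In all, 8 members had a called correlation with these markers, beside 12.1% of all genes, and 5 of the 8 were alpha symbols. They did not all run with the markers. SCFA replicate 5, with 2906 CPM of the marker Mbp, had 135 CPM of Cdh13, 17.5 of Cdh7 and 181 of Pcdhac2. SCFA replicate 1, with 11369 CPM of Mbp, had 94.5, 6.18 and 116 CPM. Of the 8, only Cdh19 was called in the 4-hundred series (4.46% of all genes) or without the 2 farthest libraries (4.85%). In the other series 0 members were called (2.86%). Cdh5, the endothelial cadherin, correlated with 10 endothelial and mural markers at r = 0.68 (rho = 0.68), without a call (adjusted p = 0.132 and 0.122). For Pcdh12, also endothelial, r was 0.52 (adjusted p = 0.393).

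Pcdhb6 and Pcdhb8 ran opposite to each other across libraries. Pcdhb6 lay between 1.13 and 2.42 CPM in 11 libraries and between 4.35 and 9.67 CPM in the other 9. Its r with Pcdhb8 was -0.74 (rho = -0.59), the most negative of the 55 pairs of beta genes, with p-values adjusted over these pairs of 0.00715 and 0.136 in permutation tests. The r was -0.74 and -0.76 within the number series and -0.60 without the 2 libraries farthest from the median of Pcdhb6. The sum of both genes was 12.8 ± 1.26 CPM in Abx_SCFA, 12.1 ± 1.43 CPM in SCFA, 12.4 ± 1.03 CPM in Abx and 12.9 ± 2.16 CPM in H2O (SD, n = 5, 6, 4 and 5). How reads that match several beta genes were counted is not given in the sources used here.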
